A study of Homo sapiens with 2 samples.

Results

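The genes described here are the cytokines, chemokines and cytokine receptors that the study's authors called changed in SNU-449 cells after treatment with ezetimibe. SNU-449 is a human hepatocellular carcinoma line, and ezetimibe lowers plasma cholesterol by inhibiting NPC1L1, a transporter of sterols in gut and liver. The members are the genes named in the row for cytokine-cytokine receptor interaction (KEGG pathway hsa04060) of the authors' deposited enrichment table: 66 genes, of the 2238 genes the table names in all. The label holds, since all 66 members fall into families of ligands or receptors, 37 ligands and 29 receptors. Total RNA was sequenced from 1 culture treated with ezetimibe for 24 h and from 1 control culture, both grown in RPMI medium with serum. The dose is not stated in the sources at hand.

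The table gives each gene a direction, up or down, and no level, fold change or p-value. With 1 library per condition there is no replicate check, depth is unknown, and every count below is a description with no test. The members were chosen by the authors' calls of changed genes in this one comparison, so neither their number nor their directions are independent of the choice. The direction up was taken to mean higher in the ezetimibe library, because the comparison is named with ezetimibe before control; the table holds no value to check this. RNA came from the whole culture, so fewer cells expressing a gene and less RNA per cell cannot be told apart. Levels of hepatocyte markers are not in the table. Of 5 such markers FGB and CPS1 were listed, both as down, and of 3 leukocyte markers CD68 was listed, as up. The 3 fibroblast markers COL1A1, COL1A2 and ACTA2 were all listed as down. No endothelial marker of 3 was listed, and the part of other cells in the results was not tested.

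Cytokines are secreted or membrane-bound proteins that carry signals between cells. Chemokines attract leukocytes through G protein-coupled receptors. Interleukins and colony-stimulating factors bind receptors that work through JAK kinases and STAT factors. Ligands of the TNF and IL-1 families act largely through NF-kB, and those of the TGF-beta superfamily through receptor kinases that phosphorylate SMAD proteins. In liver, IL-6 drives the acute phase response, TGF-beta restrains hepatocyte growth and promotes fibrosis, and many tumour cells secrete neutrophil-attracting chemokines.

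Of the 66 members, 33 were listed as up and 33 as down. The authors called 25.2% of the 8877 background genes in either direction, 8.20% up and 17.0% down. In the pathway 66 of 337 genes (19.6%) were called, with a rich factor of 0.777 and a p-value of 1 in the authors' deposited table, which is no enrichment by the authors' test. The share up among the members was 50% (95% interval 37.4 to 62.6 by the exact Clopper-Pearson method, which covers counting error alone). Among the 2172 listed genes outside the pathway it was 32.0%. Of the 337 pathway genes 33 were called up and 33 down, to be set beside 8.20% and 17.0% of the background. A share up among called genes also rises when fewer genes are called down. By itself it does not show that more pathway genes were called up. Ligands were split evenly, with 19 up and 18 down, and so were receptors, with 14 up and 15 down. By family the counts were less even. Of the 18 ligands and receptors of the TGF-beta superfamily 4 were up and 14 down, whereas of the other 48 members 29 were up and 19 down. Of the 17 ligands outside the TGF-beta and TNF families, 14 were up and 3 down. The TGF-beta and TNF ligands left out hold 11 and 4 of the 18 ligands down. The lean up of the rest therefore follows in part from the choice of set, made with earlier results known.

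**Figure D1:**
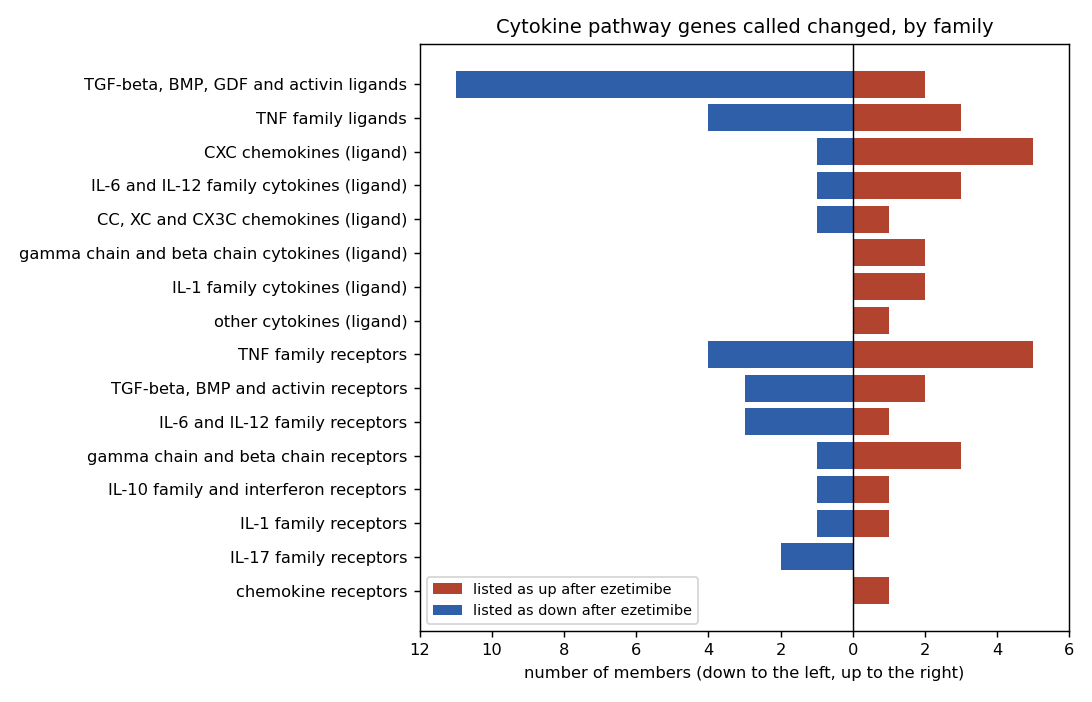
Number of members per family that the authors called up (red, to the right of 0) or down (blue, to the left of 0) after ezetimibe; ligand families are above receptor families. The TGF-beta, BMP, GDF and activin ligands had 11 members down and 2 up, and the CXC chemokines 5 up and 1 down. Over all genes of the table, which lean down, 32.5% were listed as up.

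A group of 5 chemokine members lies together on chromosome 4, and the sequences before their starts are shown first because these neighbours were not all listed in one direction. These genes encode chemokines that attract neutrophils through the receptors CXCR1 and CXCR2, neither of which was listed. CXCL8, CXCL1, CXCL3 and CXCL2 were listed as up and CXCL6 as down. The lines give the 110 bases before the annotated start (RefSeq promoter windows, GRCh38.p14), 5′ to 3′ on the strand of the gene. Capitals mark the run GGAATTTCC or a match to the consensus motif of NF-kB, a factor that activates many cytokine genes.
CXCL8 (up; chr4:73740459-73740568, plus strand): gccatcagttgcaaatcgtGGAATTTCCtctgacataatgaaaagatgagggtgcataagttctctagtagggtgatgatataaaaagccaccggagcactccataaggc
CXCL1 (up; chr4:73869283-73869392, plus strand): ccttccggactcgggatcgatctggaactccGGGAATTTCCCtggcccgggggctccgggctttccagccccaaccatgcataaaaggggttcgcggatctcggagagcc
CXCL2 (up; chr4:74099196-74099305, minus strand): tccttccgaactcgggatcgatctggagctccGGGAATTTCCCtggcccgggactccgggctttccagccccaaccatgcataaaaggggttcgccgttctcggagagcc
CXCL3 (up; chr4:74038690-74038799, minus strand): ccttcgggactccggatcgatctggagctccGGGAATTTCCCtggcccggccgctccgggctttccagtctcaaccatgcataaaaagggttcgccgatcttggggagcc
CXCL6 (down; chr4:73836568-73836677, plus strand): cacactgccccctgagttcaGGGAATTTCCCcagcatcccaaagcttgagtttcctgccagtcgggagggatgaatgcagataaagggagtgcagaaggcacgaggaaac

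The 5 genes spanned 359 kb, from 73740506 to 74099293 on chromosome 4 (GENCODE release 29, GRCh38). CXCL6 lay between CXCL8 and CXCL1, so the gene listed as down had members listed as up on both sides. The 110-base stretches of CXCL1 and CXCL2 were 93.7% identical in a global alignment, those of CXCL1 and CXCL3 90.0%, and those of CXCL2 and CXCL3 88.3%. Those of CXCL8 and CXCL6 were less alike. CXCL8, listed as up, was 44.4% to 45.3% identical to these 3, and CXCL6, listed as down, 52.8% to 54.1%, and CXCL6 and CXCL8 were 51.7% identical to each other. The run GGAATTTCC is the longest that all 5 windows share and was searched for because of it; it was present in 129 of the 27305 RefSeq promoter windows searched (0.472%, both strands). As it was picked for being in all 5 windows, its presence in CXCL6 says nothing about direction. The only other member with this run was TNFRSF9, a costimulatory receptor of T cells, listed as up.

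**Figure D2:**
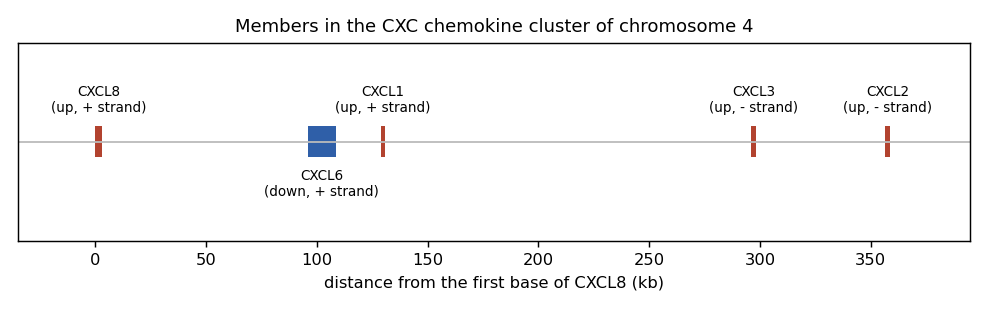
Positions of the 5 members in the CXC chemokine cluster of chromosome 4, as distance in kb from the first base of CXCL8; red bars are genes listed as up and the blue bar is CXCL6, listed as down. CXCL6 lies between CXCL8 and CXCL1, and CXCL3 and CXCL2 lie at the far end, on the minus strand.

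Of the 17 CXC chemokines in the list, 6 were listed, 5 as up and 1 as down. Here and below, the number listed per family stands beside 25.2% called over all background genes. The family lists were not matched to that background. CXCL12, on chromosome 10, was up, and so was its receptor CXCR4, which guides cell migration and was the only listed receptor of 20 chemokine receptors. Of the 31 CC, XC and CX3C chemokines 2 were listed. CCL20, which attracts cells through CCR6, was up, and CCL2, a monocyte attractant, was down. Among the chemokines, CXCL8 and CCL20, both up, had the lowest GC content in their longest transcript, 33.4% and 35.5%. CXCL1, CXCL2 and CXCL3 resemble each other, and of the 50-base runs in their longest transcripts 5.73%, 9.24% and 3.02% also occur in another gene. Their calls could share reads to that extent.

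Of the 16 cytokines of the IL-6 and IL-12 families, 4 were listed, and IL6, IL12A and CSF3 were up. IL6 (ENSG00000136244; chromosome 7, 22725884 to 22732002) encodes the main acute phase cytokine, IL12A a subunit of IL-12, and CSF3 a growth factor of neutrophils. CNTF, a neurotrophic cytokine, was down, but 37.1% of the 50-base runs in its transcript also belong to the read-through gene ZFP91-CNTF, so its call is uncertain. On the receptor side the binding subunit IL6R was up and the shared signalling subunit IL6ST (gp130) down. IL11RA and LEPR, the receptors of IL-11 and leptin, were also down. The call of IL11RA is uncertain too, since 21.9% of its 50-base runs occur in other genes, such as GALT, which overlaps it on the same strand.

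The haematopoietic growth factor CSF2 and the epithelial cytokine TSLP were the 2 listed ligands of 11 in the gamma chain and beta chain families, and both were up. Of 15 receptors of these families 4 were listed. IL2RB, IL21R and CSF2RA, best known from lymphocytes and myeloid cells, were up, and IL13RA1, which binds IL-13, was down. IL36B and IL36G, IL-1 family cytokines of epithelia, were up. They lie within 80 kb on chromosome 2. Of 7 IL-1 family receptors, the IL-33 receptor IL1RL1 was up and the shared subunit IL1RAP down. IL32, a cytokine outside these families that induces other inflammatory cytokines, was up.

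None of the 27 IL-10 family cytokines and interferons of the list was in the table, and none of the 6 IL-17 cytokines. None of the growth hormone, prolactin, erythropoietin and thrombopoietin genes was in it either, neither the 8 ligands nor the 4 receptors. A gene that is not in the table was not called by the authors, not expressed, or outside the pathways. Of 11 receptors of IL-10 family cytokines and interferons, IL10RA was up and IL22RA1 down. Of 5 IL-17 receptors, IL17RB and IL17RE, which bind IL-25 and IL-17C, were down.

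Members of the TNF family were divided, with 8 up and 8 down. Among 7 listed ligands of 19, TNFSF9 and CD70, which costimulate T cells and lie within 73 kb on chromosome 19, were up. Down were the death ligand TNFSF10 (TRAIL), TNFSF12 (TWEAK), TNFSF18 (GITR ligand) and LTB, which takes part in lymphoid organ formation. Of the 50-base runs of TNFSF12, 29.1% belong also to the read-through gene TNFSF12-TNFSF13, so its call is uncertain.

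Of 29 TNF family receptors 9 were listed, 5 as up and 4 as down. The TNF receptors themselves went opposite ways. TNFRSF1A, the widely expressed receptor with a death domain, was down, and TNFRSF1B, which lacks one, was up. LTBR, the receptor of lymphotoxin, was up although it lies within 63 kb of TNFRSF1A on chromosome 12. The TRAIL receptor TNFRSF10A was up, whereas the death receptor FAS was down. TNFRSF9 and NGFR were up, and TNFRSF13C (the BAFF receptor) and TNFRSF19 were down. In all, 13 members overlap another coding gene in GENCODE release 29, 3 of them up and 10 down, and 6 do so on the same strand. Such overlap was not counted over all genes of the table, so the split cannot be read as particular to the members. FAS overlaps ACTA2 on the opposite strand, which was also listed as down, and whether the authors' counting used strand is not known here.

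The TGF-beta superfamily held the largest group of members listed as down among the families. Of its 31 ligands 13 were listed, 2 as up and 11 as down, beside 25.2% of background genes called in either direction. Most genes of the table were also listed as down, 1510 of 2238, and the difference was not tested. TGFB2 (ENSG00000092969; chromosome 1, 218346235 to 218444619) and TGFB3, which signal through TGFBR2, were down. So were the bone morphogenetic proteins BMP3, BMP4, BMP5 and BMP8B, the growth and differentiation factors GDF7 and GDF11, and MSTN, the inhibitor of muscle growth. INHA and INHBB, subunits of inhibins and activins, were down too. Of TGFB2, 26.4% of the 50-base runs also belong to TGFB2-OT1, a transcript from the same locus, so its call is uncertain too. Of the BMP8B runs 12.7% occur in other genes, its near copy BMP8A among them. The ligands listed as up were BMP6, which in liver controls hepcidin, and GDF15, a cytokine known to be induced by cellular stress.

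Of 13 receptors of the superfamily 5 were listed. TGFBR2, the type II receptor of TGF-beta, was down, and so were the BMP receptors BMPR1A and BMPR2. Of the BMPR1A runs 12.4% also occur in other genes, including its pseudogenes. The type I receptors ACVR1 and ACVR1B, which serve BMPs and activins, were up. Downstream, 10 of 18 SMAD proteins and SMAD regulators were in the table, 1 as up and 9 as down. The listed genes included SMAD3, which carries the TGF-beta signal, and the ubiquitin ligase SMURF2, both down, and the ligase SMURF1, up. As inhibitors of the pathway, SMAD7 among them, were listed as down too, the count gives no direction of signalling.

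Both partners were members in 15 of the 102 ligand and receptor pairs in a textbook list, which drew on 25 members. In 6 pairs ligand and receptor were both up, among them CXCL12 with CXCR4, IL6 with IL6R, CSF2 with CSF2RA, TNFSF9 with TNFRSF9 and BMP6 with ACVR1. In 4 pairs both were down, TGFB2 and TGFB3 with TGFBR2, and BMP4 with BMPR1A and with BMPR2. In 3 pairs the ligand was down and the receptor up: LTB with LTBR, TNFSF10 with TNFRSF10A and GDF11 with ACVR1B. In 2 pairs the ligand was up and the receptor down, IL6 with IL6ST and BMP6 with BMPR2. In another 41 pairs only one partner was a member. Pairs share genes, so they are not separate results. The list does not hold every known pair among the members, so these counts depend on which pairs it holds.

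Genes beneath the receptors were counted from lists of signalling components. They stand beside 32.5% up over all genes of the table and 25.2% of background genes called, with no test of the differences. Of 15 NF-kB subunits and inhibitors 10 were in the table, 8 as up and 2 as down. NFKB1, RELA, NFKBIA and NFKBIB, a pair of subunits and a pair of their inhibitors, were up; the subunit REL and the kinase MAP3K14 were down and are named because of it. Of 21 adaptors of TNF and IL-1 receptors, 5 were up and 3 down, with TRAF6, TRADD and IRAK1 up and IRAK4 and BIRC2 down. Of 26 genes of JAK-STAT signalling and its inhibitors 7 were in the table, all as down. They included the phosphatase PTPN11, the inhibitors SOCS3 and SOCS4, and STAT4. As inhibitors are among them, the count gives no direction of signalling. Of 26 G proteins and effectors of chemokine receptors 1 was up, the adenylyl cyclase ADCY8, and 8 were down, including the phospholipases PLCB3 and PLCB4 and the G protein subunit GNAI1. None of these genes is a member, and the lists were chosen with earlier results of these data known.

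Members also belong to other pathways, where their directions can be set beside those of the other listed genes, with no test. JAK-STAT signaling had 40 listed genes and shared 16 with the members, 40% of its genes and 24.2% of the members. Of the shared genes 10 were up and 6 down, and of its other genes 3 were up and 21 down. Chemokine signaling shared 9 of its 46 listed genes, 19.6% of its genes and 13.6% of the members, 7 up and 2 down. Its other genes were 10 up and 27 down. PI3K-Akt signaling shared 6 of its 119 (5.04%, and 9.09% of the members), all up, CSF3, IL2RB, IL6, IL6R and NGFR among them. Its other genes were 27 up and 86 down. In TGF-beta signaling, by contrast, both parts leaned down, with 3 up and 10 down among 13 shared genes and 3 up and 21 down among the others. The 13 were 35.1% of its 37 genes and 19.7% of the members.

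For IL-17 signaling, 12 shared genes (29.3% of its 41, and 18.2% of the members) were 8 up and 4 down, and its others 16 up and 13 down. For TNF signaling, 10 shared genes (20.4% of its 49, and 15.2% of the members) were 7 up and 3 down, and its others 16 up and 23 down. Members did not lean further up than the other genes in every pathway compared. Rheumatoid arthritis shared 11 of its 32 genes (34.4%, and 16.7% of the members), 6 up and 5 down, and its others were 16 up and 5 down. Apoptosis shared 5 of its 64 (7.81%, and 7.58% of the members), 2 up and 3 down, and its others were 25 up and 34 down. NF-kappa B signaling shared 7 of its 35 (20%, and 10.6% of the members), 4 up and 3 down, and its others were 14 up and 14 down. Toll-like receptor signaling shared 3 of its 37 (8.11%, and 4.55% of the members), all up, against 14 up and 20 down. NOD-like receptor signaling shared 6 of its 55 (10.9%, and 9.09% of the members), 5 up and 1 down, against 18 up and 31 down. Among smaller sets, hematopoietic cell lineage shared 6 of its 18 (33.3%, and 9.09% of the members), 5 up and 1 down, against 2 up and 10 down. Legionellosis shared 6 of its 28 (21.4%, and 9.09% of the members), all up, against 12 up and 10 down. Malaria shared 7 of its 14 (50%, and 10.6% of the members), 4 up and 3 down, against 2 up and 5 down. These pathways share members with each other, IL6 and CXCL8 among them. The members under the most pathways among those up were IL6, under 43, CXCL8, under 27, IL12A, under 22, and CSF2, under 15. CXCL1 and CXCR4 followed with 11 each. Among those down they were TGFB2, under 30, FAS, under 28, TGFB3 and TNFRSF1A, under 27 each, and TGFBR2, under 22. By contrast 15 members were named under the cytokine pathway alone, 8 up and 7 down, GDF15, IL32, IL36B and IL36G among those up. The number of pathways says how widely a gene is annotated, not how much it changed.

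Over all genes of the table, genes listed as up had the higher transcript GC content, and so had the members, with medians closer together. Median GC content was 50.3% in the longest transcripts of members up (range 33.4 to 62.9, 33 genes), and 44.2% in those of members down (33.8 to 63.4, 33 genes). Outside the pathway the medians were 55.4% for genes listed as up and 43.6% for genes listed as down. The members' transcripts were also shorter, with medians of 1909 bases for those up and 3008 for those down, against 2887 and 4413 outside the pathway. The 17 ligands outside the TGF-beta and TNF families, 14 of them up, had a median of 44.5%, near that of genes outside the pathway listed as down. The 18 genes of the TGF-beta superfamily, 14 of them down, had a median of 48.3%. Both sets were chosen with directions known, and the first leaves out most ligands listed as down. A link between GC content and direction was not tested.

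**Figure D3:**
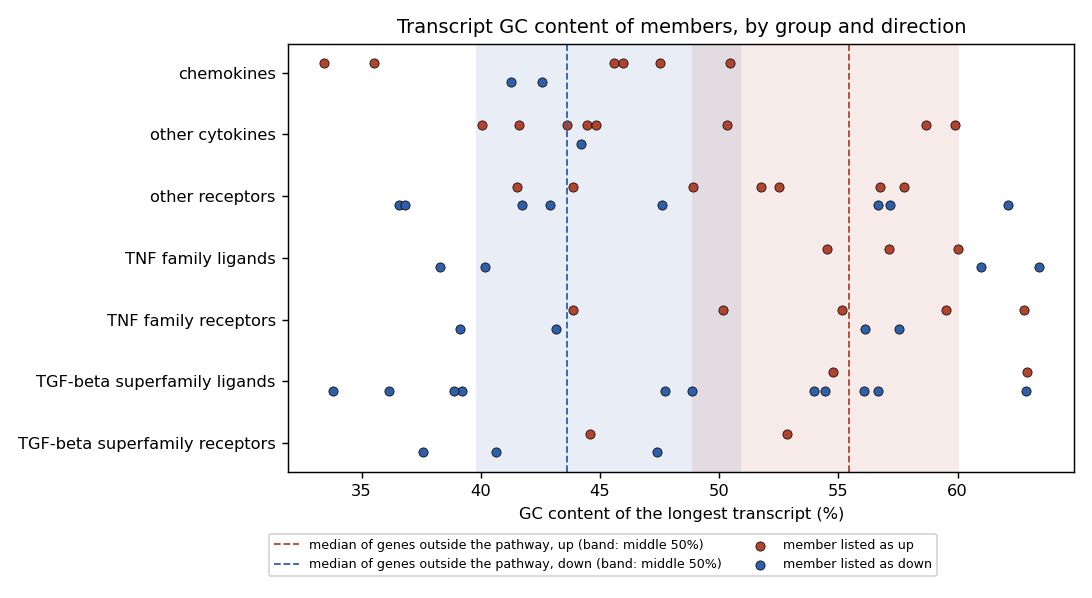
GC content of the longest transcript of each member (x axis, percent) by group, with members listed as up in red and as down in blue; dashed lines and bands give the median and middle 50% of genes outside the pathway in each direction. Most chemokines and other cytokines listed as up lie left of the red band, and TGF-beta superfamily ligands listed as down reach from 33.8% to 62.9%.

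When all genes of the table were divided into 4 equal classes by transcript GC content, the shares of members and other genes listed as up were furthest apart in the second class, from 41.3 to 47.0%. There 10 of 15 members were up (66.7%, exact 95% interval 38.4 to 88.2), against 102 of 544 genes outside the pathway (18.8%, 15.6 to 22.3). The 10 were ACVR1, CXCL1, CXCL2, CXCR4, IL12A, IL1RL1, IL36G, IL6, TNFRSF9 and TSLP. In the lowest class 3 of 15 members were up (20%, 4.33 to 48.1), namely CCL20, CXCL8 and IL36B, against 23 of 544 other genes (4.23%, 2.70 to 6.28). In the third class 11 of 19 members (57.9%, 33.5 to 79.7) and 249 of 540 others (46.1%, 41.8 to 50.4) were up. In the highest class the order turned, with 9 of 17 members (52.9%, 27.8 to 77.0) and 321 of 544 others (59.0%, 54.7 to 63.2) up. The intervals cover counting among genes only, and genes are not replicates.

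**Figure D4:**
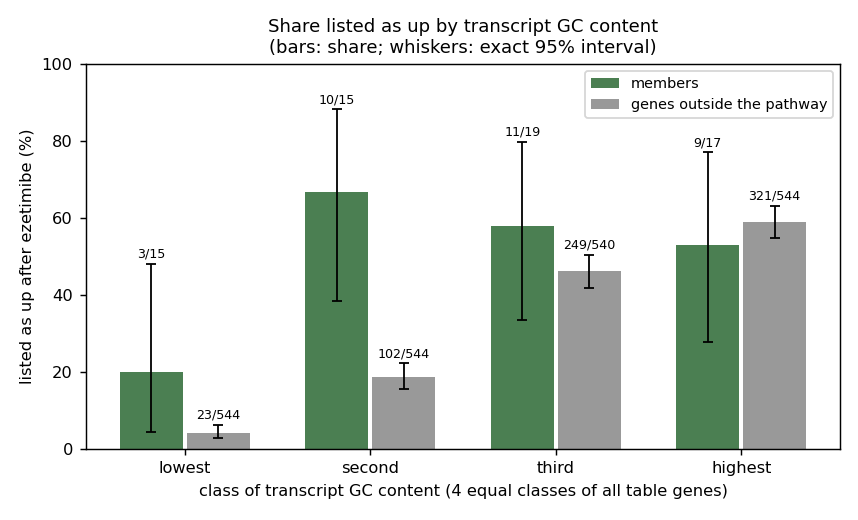
Share of genes listed as up after ezetimibe (percent, bars, with exact 95% intervals) in 4 equal classes of all table genes by transcript GC content, for members (green) and genes outside the pathway (grey); numbers are genes up over genes in the class. Among other genes the share climbs from 4.23% in the lowest class to 59.0% in the highest, and among members it is highest in the second, at 66.7%.

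Promoter windows of 250 bases before to 50 after the start were matched by symbol for 55 of the 66 members, 26 up and 29 down. The others included BMP3, CCL2, CD70, CSF3, IL2RB, IL36B, NGFR, TNFRSF10A, TNFRSF13C and TNFSF12. A match to the NF-kB consensus on either strand was found in 5.72% of all 27305 windows. It was found in 11 of 26 members listed as up (42.3%) and in 6 of 29 listed as down (20.7%). For all table genes the shares were 8.93% of those up and 7.59% of those down. The 11 were ACVR1B, BMP6, CCL20, CSF2RA, CXCL1, CXCL2, CXCL3, IL12A, IL32, IL6 and TNFRSF9, and the 6 were BMP8B, CXCL6, GDF7, IL22RA1, INHBB and LTB. Sites for NF-kB are known from many cytokine promoters, but a match is a description, not a site of binding. Nor does the lack of a match show that a site is absent. The promoter stretches of CXCL1, CXCL2 and CXCL3 are 88.3% to 93.7% identical, so their matches are not separate results. The share among pathway genes that were not called was not computed. CXCL8 was not counted because the bases beside its run GGAATTTCC differ from those the consensus requires. Under a second pattern that overlaps the first, looser at its start and stricter in its later bases, GGNNN followed directly by TTTCC, 7 members up and 5 down had a match, against 6.17% of all windows.

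IL6 and CCL20, both up, are shown as members outside the cluster on chromosome 4 with a match in the same stretch, their capitals marking the match.
IL6 (up; chr7:22727090-22727199, plus strand): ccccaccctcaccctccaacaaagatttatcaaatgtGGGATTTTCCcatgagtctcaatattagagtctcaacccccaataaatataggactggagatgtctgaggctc
CCL20 (up; chr2:227813722-227813841, plus strand): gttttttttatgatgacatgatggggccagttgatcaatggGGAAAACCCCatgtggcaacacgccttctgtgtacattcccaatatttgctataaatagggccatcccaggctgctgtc

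The match began 73 bases before the start in IL6 (position -73) and at -79 in CCL20, where it lies on the opposite strand. In CXCL1 and CXCL3 it began at -79, in CXCL2 at -78 and in CXCL6 at -90. IL6 and CCL20 were shown for having it in this stretch, and other members had theirs elsewhere. It began at -181 in ACVR1B, -99 in IL32, -46 in BMP6, -44 in IL12A and 10 bases after the start in CSF2RA, all up. The AP-1 pattern TGANTCA was found in 5 members up (19.2%), CXCL8 and TNFRSF9 among them, and 5 down (17.2%), FAS and MSTN among them, against 7.76% of all windows. The TATA box pattern TATAAA was found in 5 up (19.2%), including CXCL8, CXCR4 and GDF15, and 6 down (20.7%), including TGFB2 and TNFSF10, against 12.0% of all windows. The STAT pattern TTCNNNGAA was found in 3 up and 2 down, against 7.88% of all windows. The C/EBP-ATF pattern TGATGNAA was found in 1 up, IL21R, and 0 down, against 3.67% of all windows. Of all table genes listed as up and as down, 6.96% and 4.47% had the AP-1 pattern, and 9.82% and 6.08% had TATAAA. For the STAT pattern these shares were 6.79% and 7.09%, and for C/EBP-ATF 3.21% and 1.86%.

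**Figure D5:**
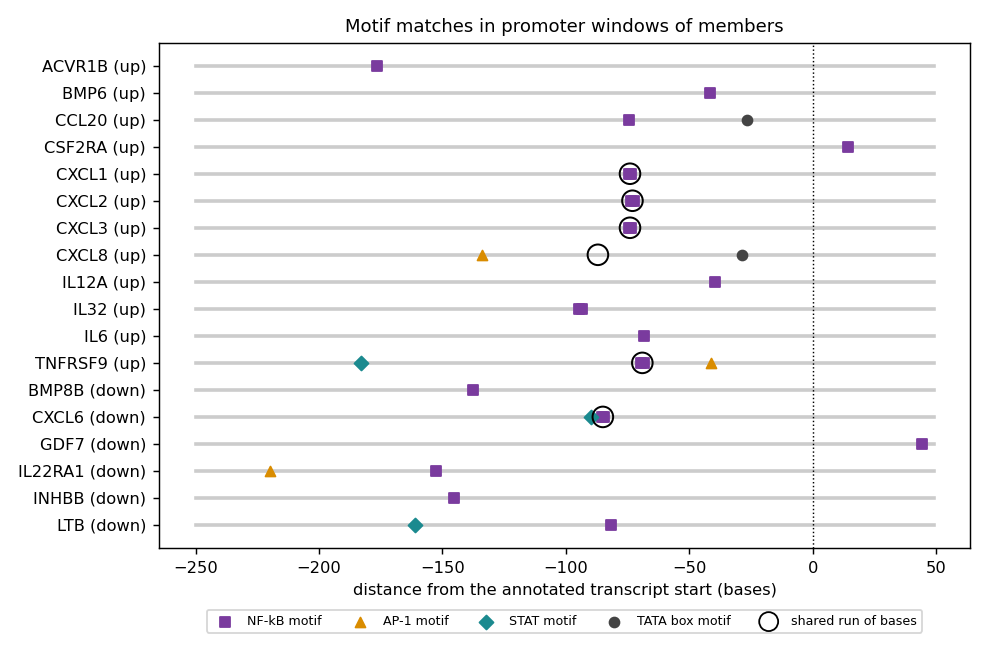
Motif matches in the promoter windows of members with an NF-kB match, and of CXCL8; the x axis is the distance in bases from the annotated start, symbols are motifs, and open circles mark the run GGAATTTCC. The NF-kB matches of CXCL1, CXCL2, CXCL3, IL6, CCL20 and TNFRSF9, all up, and of CXCL6 and LTB, down, fall between -90 and -64 from the start. Those of the other 9 members lie elsewhere, from -181 in ACVR1B to 40 bases after the start in GDF7.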

How the data were processed

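The authors deposited 1 table, which gives per KEGG pathway the genes called changed between the ezetimibe and the control library, split into up and down. The tools were HISAT2 2.0.4 and StringTie 1.3.0, per the submitters' processing notes. The sources at hand do not give settings, genome build, annotation, call test or threshold. Per the file headers each pathway also has p-value and q-value columns and an enrichment ratio (rich factor), and those printed are the authors' own.

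Members were taken from the pathway row by gene ID. Families, pairs, signalling lists and motifs were chosen with earlier results of these data known. Every member is named, except 1 that is counted but not reported here; pairs, families with 3 or more members and the 5 members under the most pathways per direction are described further, and up to 4 genes, ties apart, from each signalling list. Position, GC content, length and 50-base runs shared with other genes came from GENCODE release 29, with 2237 of 2238 genes matched, and promoters (1 window a gene) from RefSeq. The authors' annotation may differ. Motif search was tested on simulated sequences. Python 3.11.15, pandas 2.3.3, NumPy 2.4.6, SciPy 1.17.1, Matplotlib 3.10.9 and Biopython 1.88 were used.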

Additional observations from a re-analysis of the deposited data

How the results depend on the processing

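The count of 33 members up and 33 down was recomputed without members under more than 20 pathways (30 and 28), without CXCL1, CXCL2, CXCL3 and TNFRSF10A, the members on a short list of tandem copies (29 and 33) and for members under another pathway too (25 and 26). It was also recomputed by gene ID (33 and 33) and, chosen after seeing the data, without the 13 members that overlap another coding gene (30 and 23) and without the 6 with over 10% of their 50-base runs in another gene (33 and 27). The share up ranged from 46.8% to 56.6%. Without the TGF-beta superfamily 7 ligands were down instead of 18, as 11 of the 18 belong to it. With the second NF-kB pattern, which is stricter in its later bases, 7 members up had a match instead of 11. With any window of a gene, also chosen afterwards, 12 up and 7 down had one, against 7.09% of all genes. The median GC content of members up exceeded that of members down by 6.13 percentage points, by 7.07 over all transcripts and by 1.17 in the promoter window. No paired analysis was possible because each condition has 1 library and the table has no value per library.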
